A study of Rattus norvegicus with 44 samples.

Results

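Transcripts of 7 genes of the complement system were followed in the dentate gyrus of young and older rats: C1qa, C1qb and C1qc, which encode the chains of the recognition molecule C1q, C4a and C4b, which encode component C4, C3, and Serping1, which encodes the C1 inhibitor. They were picked by gene symbol from 18347 gene identifiers, and all 7 were among the 15598 genes with a mean normalized read count of at least 5. The libraries came from 44 male F344 rats, 1 library per rat, each made from poly(A) RNA of the dentate gyrus of a single hemisphere. The 10 YNG rats were 6 months old, and the authors' attributes table labels their group as Young - Vehicle. The older rats were 12 months old when treatment began and about 18 months old when tissue was taken, and the deposited labels give the starting age. Of these, 12 were given vehicle by oral gavage (AV), 11 were given ABT-263, an inhibitor of BCL-2 family proteins, at 12 mg/kg (AA), and 11 were given dasatinib, a tyrosine kinase inhibitor, at 1.2 mg/kg with quercetin, a plant flavonoid, at 12 mg/kg (ADQ). Treatment ran for 5 days in each of 8 cycles before behavioral testing, with a final round afterward. The animals are of 1 inbred strain and 1 sex, and the drugs were given by oral gavage and not directed to the brain or to a chosen cell type. According to the study, dasatinib and quercetin can enter the brain, while ABT-263 normally stays outside it.

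Complement is a cascade of blood and tissue proteins. C1q binds its target and activates the proteases C1r and C1s. Activated C1s cleaves C4 and C2, and the resulting enzyme cleaves C3 to fragments that tag a surface for uptake by phagocytes. The C1 inhibitor blocks C1r and C1s. In brain, C1q is made mainly by microglia, C3 and C4 can be made by glia, and C1q and C3 are known for their part in removal of synapses by microglia through the receptor formed by Itgam and Itgb2.

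The 3 C1q genes are neighbors on chromosome 5 in the order C1qb, C1qc and C1qa, between Ephb2 and Epha8, and C4a and C4b lie apart on chromosome 20, next to Stk19 and Cyp21a1 and next to Notch4 and Btnl4, respectively (RefSeq, GRCr8). The authors' alignment used another build (rn6), so the coordinates given here are those of the RefSeq promoter sequences only. RefSeq gave a promoter for 5 of the 7 members, C1qa, C1qb, C3, C4a and C4b. The 250 bases before the start of transcription are shown because C4a and C4b are copies of each other that were measured separately, and because the C1q genes, C3 and C4 differed in how they varied from rat to rat. Capitals mark matches on either strand to 7 motifs searched in all 33469 RefSeq promoters of this length, and the search was made after the member promoters had been seen. The C4a promoter lies at chr20:4010107-4010356 (plus strand) and that of C4b at chr20:4201729-4201978 (plus strand).
C4a: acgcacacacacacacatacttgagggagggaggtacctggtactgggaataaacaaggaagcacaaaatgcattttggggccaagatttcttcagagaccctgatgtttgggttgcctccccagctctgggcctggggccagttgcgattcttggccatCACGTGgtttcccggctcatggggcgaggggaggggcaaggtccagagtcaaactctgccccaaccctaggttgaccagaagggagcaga
C4b: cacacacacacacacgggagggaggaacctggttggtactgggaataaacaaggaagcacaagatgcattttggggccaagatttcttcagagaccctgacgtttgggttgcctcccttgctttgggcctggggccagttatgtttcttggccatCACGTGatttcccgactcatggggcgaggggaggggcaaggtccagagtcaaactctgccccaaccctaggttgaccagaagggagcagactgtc
C3 (chr9:2201340-2201589, minus strand): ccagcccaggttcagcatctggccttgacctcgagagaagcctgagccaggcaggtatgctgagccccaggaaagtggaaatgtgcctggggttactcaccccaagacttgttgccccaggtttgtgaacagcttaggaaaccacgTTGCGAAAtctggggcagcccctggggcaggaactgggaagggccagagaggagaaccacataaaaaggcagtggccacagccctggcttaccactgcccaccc
C1qa (chr5:154419934-154420183, minus strand): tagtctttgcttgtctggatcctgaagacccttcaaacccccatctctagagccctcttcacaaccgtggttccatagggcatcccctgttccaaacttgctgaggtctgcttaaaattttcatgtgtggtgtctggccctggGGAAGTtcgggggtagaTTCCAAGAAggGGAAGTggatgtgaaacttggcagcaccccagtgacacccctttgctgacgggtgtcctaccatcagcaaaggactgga
C1qb (chr5:154407828-154408077, minus strand): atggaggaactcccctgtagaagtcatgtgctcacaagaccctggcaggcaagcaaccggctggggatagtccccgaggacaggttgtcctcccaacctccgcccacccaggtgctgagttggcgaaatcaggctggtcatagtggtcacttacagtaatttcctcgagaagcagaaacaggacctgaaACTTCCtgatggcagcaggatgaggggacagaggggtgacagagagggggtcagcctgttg
The C4a and C4b promoters aligned over 245 columns with 226 identical bases (92.2%) and no gap, and both hold the E-box CACGTG, which 5.59% of all promoters hold. The C3 promoter holds a match to the C/EBP motif TTGCNNAA (9.22% of promoters). The C1qa promoter holds the ETS core GGAAGT at 2 places and C1qb holds it once on the opposite strand (19.2% of promoters), and C1qa also holds a match to the GAS motif TTCNNNGAA (7.67%), which lies between its ETS matches and overlaps neither. None of the 5 windows holds the letters searched for ISRE (3.41% of promoters), kappaB (0.314%) or AP-1 (TGANTCA, 6.34%). A match is a run of letters and not a measured binding site.

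The estimated depth was 10166556 to 24328425 reads per rat, with group medians from 15135379 (AV) to 17820755 (ADQ). The rats fall into 2 ranges of rat number, called here series a (22 rats) and series b (22 rats), which the labels do not name as batches and which the transcript AABR07000398.1 separates (0.422 to 1.6% of a library in a, 1.71 to 11.1% in b). Each series holds all 4 groups, and values within each are given beside the member results that differed between them. In series b, however, the AV rats are numbered 4566 to 4572 and the AA and ADQ rats 4031 to 4110. Differences of a drug group from AV within series b therefore cannot be told apart from number range. Markers of dentate granule cells and of microglia were present in every rat, but the amount of neighboring tissue varied. AA rat 4107 had the lowest granule cell sum, 2669 normalized reads against group medians of 9653 to 11964, and the highest sum of CA1 pyramidal cell markers, 40013 against medians of 6938 to 9870. AV rat 3989 (6079 and 26616) and AA rat 3996 (5129 and 17218) also had low granule cell and high CA1 sums. The libraries of 4 AV rats, 3989, 3999, 4009 and 4568, were highest in T and NK cell markers (Cd3e, Nkg7, Prf1, Cd8a, Gzmb and Gzma), which summed to 317 to 839 normalized reads in them and to at most 236 in the other 40 rats. The value of 236 is that of another AV rat, which lies under the cut of 250 and was not left out. The highest sums in YNG, AA and ADQ were 122, 127 and 102. Endothelial markers of the 4 rats (4 of 5 listed were in the table, without Pecam1) summed to 3712 to 7702, against at most 3100 in the other 40 rats. Rat 3989 also had the highest sum of red blood cell markers (58193), and granulocyte and monocyte markers summed to 148 in it and to 52.6 in rat 4568, against at most 13.5 in the other rats. Member results against AV over both series are therefore given with and without these 4 rats, a choice made after the data were seen. Values within a single series include these rats.

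C4b, C4a and C3 were higher in each older group than in young dentate gyrus. C4b and Serping1 were lower in both drug groups than in vehicle-treated older rats, and of these differences only that of C4b in ADQ passed without the 4 AV rats named above. Against YNG, 6 of the 7 members were higher in AV (all but C1qb), where 21.3% of all genes tested passed the unadjusted p of 0.05 in either direction and 10.6% passed as higher. In AA, C1qa, C3, C4a and C4b were higher than in YNG (background 26.6% in either direction, 12.6% higher), and in ADQ this was so for C3, C4a and C4b (28.1% and 13.5%). For the mean of the 3 older groups, 5 members were higher (32.4% and 15.7%). After Benjamini-Hochberg adjustment over all genes in limma, C3, C4a, C4b and Serping1 passed for AV (background 2.35%) and for the mean of the older groups (14.9%), and C3, C4a and C4b passed for AA (3.85%) and for ADQ (7.08%). The median log2 difference of the 7 members from YNG was 0.36 for ADQ, 0.54 for AA and 1.12 for AV, and the median over all genes tested was 0.01, 0.00 and 0.00. Leaving out the 4 AV rats high in T and NK cell markers gave 5 members for AV (background 9.32%), 5 for AA, with Serping1 added (28.2%), and 3 for ADQ (29.7%). This omission leaves the AA and ADQ differences from YNG as they were and changes only the spread that all groups share. These 3 comparisons share the YNG rats.

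**Figure D1:**
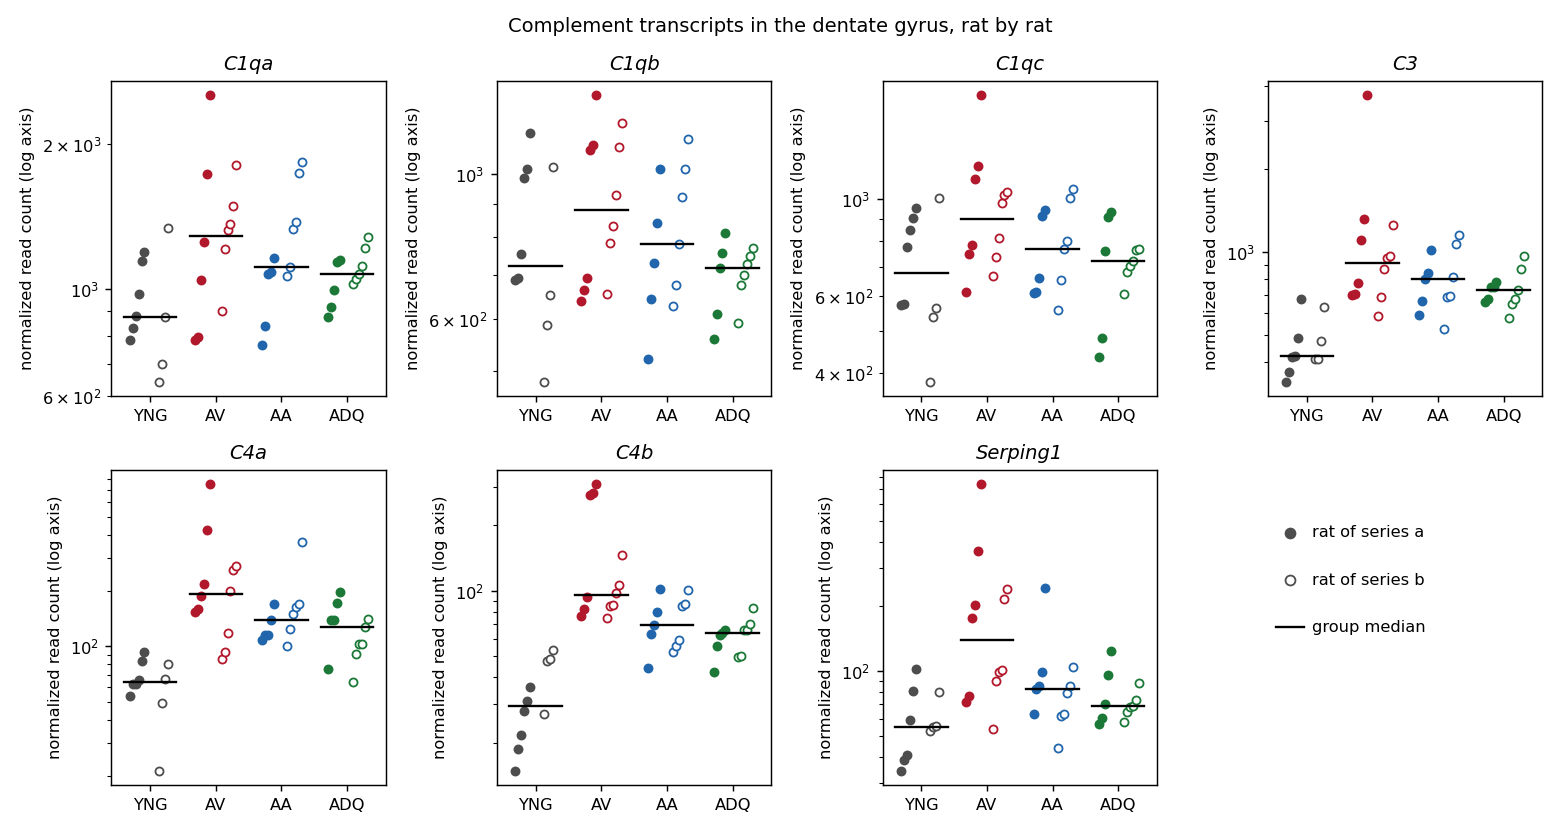
Normalized read count of each member in each of the 44 rats, on log axes, by group, with rats of series a as filled and of series b as open circles and the group median as a bar. C4b in all 12 AV rats lies above the highest YNG rat (53.2), and C1qb overlaps between all groups.

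Against AV, 2 members were lower in AA, C4b and Serping1, where 4.51% of all genes passed the test and 3.1% passed as lower. In ADQ, 6 members were lower than in AV, all but C1qa (background 9.32% in either direction, 5.9% lower). No gene of the 15598 passed after adjustment in either comparison, in which 703 and 1454 genes had an unadjusted p under 0.05. The median log2 difference of the members was -0.33 in AA and -0.44 in ADQ, against medians of 0.00 and 0.01 over all genes. When the 4 AV rats were left out, no member was lower in AA (background 2.42%) and C4b alone was lower in ADQ (background 4.84%). AA and ADQ share the AV rats in these comparisons, and no member passed the test between AA and ADQ (0 of 7, background 4.53%), with log2 differences of AA minus ADQ between 0.10 and 0.32.

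**Figure D2:**
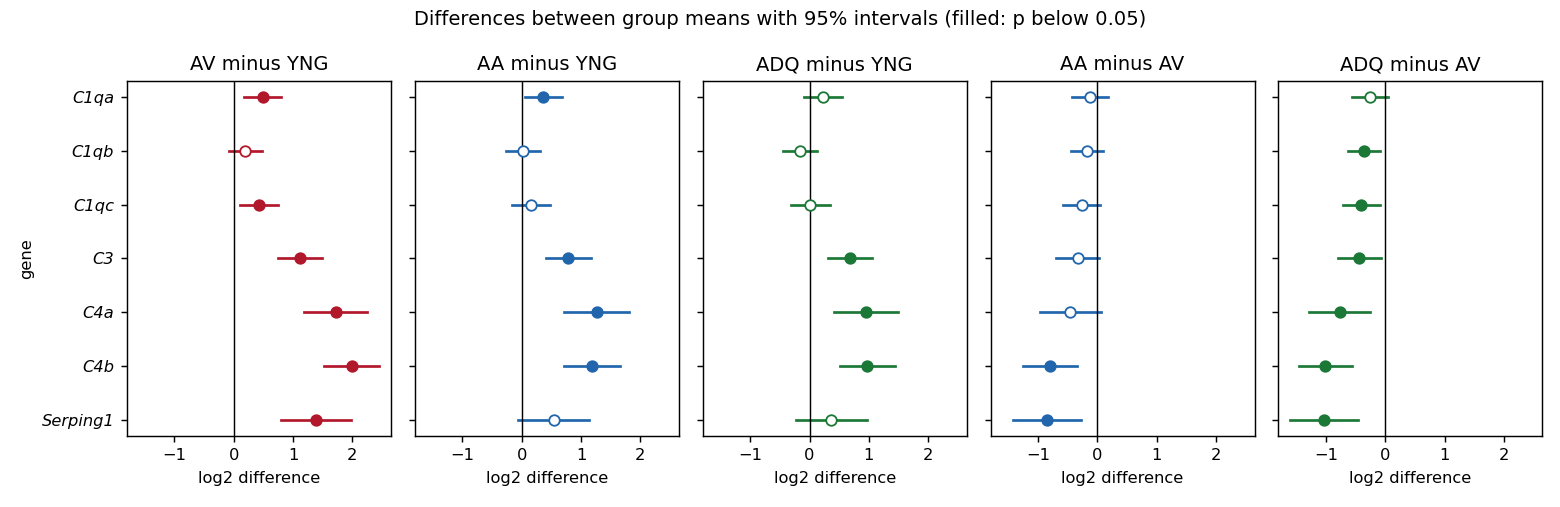
Log2 differences between group means of the 7 members with 95% intervals from limma, 1 panel per comparison, filled where the unadjusted p was below 0.05. C3, C4a and C4b lie above 0 in all 3 older groups against YNG, and C4b and Serping1 lie below 0 in both drug groups against AV.

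C4 is the substrate of activated C1s and forms the surface-bound part of the enzyme that cleaves C3. C4b had a median normalized read count of 29.6 in YNG (lowest 14.9, highest 53.2) and 95.5 in AV (75.2 to 309). The AA median was 69.4 (44.03 to 102) and the ADQ median 64.2 (42.1 to 83.6). Every AV rat was above every YNG rat, a separation that 0.0321% of all genes showed as higher, and 10 of 11 ADQ rats were below every AV rat. The highest were 3 AV rats of series a, 3989, 3999 and 4009, with 274, 282 and 309, while the other 9 had 75.2 to 146. C4b was higher than in YNG by a log2 of 1.99 in AV (SE 0.23, adjusted p = 1.66e-07, limma), a fold of 3.97 on the log2(value + 1) scale. It was higher by 1.19 in AA (SE 0.23, adjusted p = 0.0105) and by 0.98 in ADQ (SE 0.23, adjusted p = 0.017). Against AV it was lower by a log2 of -0.80 in AA (95% interval -1.25 to -0.35, p = 0.000806, adjusted p = 0.733) and of -1.01 in ADQ (-1.46 to -0.56, p = 4.16e-05, adjusted p = 0.134). With the 4 AV rats left out, the difference of AV from YNG was 1.497, that of AA from AV was -0.31 (p = 0.0987) and that of ADQ from AV was -0.52 (p = 0.00703).

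C4b in YNG had 14.9 to 36.2 in the 6 rats of series a and 27.1 to 53.2 in the 4 rats of series b. Against YNG, C4b in AV was higher by a log2 of 2.65 among rats of series a and 1.17 among rats of series b (background 33.4% and 6.31%), and these differed by 1.48 (p = 0.00118, adjusted p = 0.0373, limma), as 21.8% of all genes did at the unadjusted threshold. In both series, C4b was higher than in YNG in AA (1.49 and 0.72) and ADQ (1.22 and 0.56) and lower than in AV in AA (-1.16 and -0.45) and ADQ (-1.42 and -0.61), each with p below 0.05. The share of all genes called in these comparisons was 28.6% and 12.4% for AA against YNG, 27.4% and 6.9% for ADQ against YNG, with 3.85% and 4.21% when AA, and 5.67% and 9.74% when ADQ, was set against AV. The AV rats of series a include 3989, 3999 and 4009, and the other AV rats of series a had 76.3 to 93.1. No value within a series was computed without these rats. In series b, AV rats differ from drug rats in number range as well as in treatment. Differences between the series also passed the unadjusted threshold for C1qa and C1qb in AA against YNG (background 17.3%) and for C4a in AA against AV (4.71%).

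C4a had a median of 64.0 among YNG rats (21.3 to 93.7) and 192 among AV rats (84.9 to 752). The AA median was 138 (100 to 366) and the ADQ median 128 (64.0 to 196). The highest value was that of AV rat 3989, followed by 422 in AV rat 3999 and 366 in AA rat 4070. All 11 AA rats were above the highest YNG rat, a separation that 0.0192% of all genes showed, and 10 of 12 AV and 8 of 11 ADQ rats were above it. C4a was higher than in YNG by a log2 of 0.95 for ADQ (SE 0.27, adjusted p = 0.0303), 1.26 for AA (SE 0.27, adjusted p = 0.0178) and 1.72 for AV (SE 0.26, adjusted p = 8.85e-05). C4a was lower in ADQ than in AV by a log2 of -0.77 (p = 0.00437, adjusted p = 0.305), and AA minus AV was -0.46 (p = 0.0833). Leaving out the 4 AV rats gave -0.33 (p = 0.17) and -0.01 (p = 0.954), and AV minus YNG was then 1.28. Within series a, AA minus AV was -1.03 (p = 0.00362), and within series b it was 0.09 (p = 0.797). Both values include the 4 AV rats, of which 3989, 3999 and 4009 are in series a.

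Because the 2 genes are near-identical copies, the division of reads between them rests on how the authors' software assigned them. C4a was given in 3 rows that hold 88.3%, 6.55% and 5.13% of its mean. The row with 6.55% was below 1 in 8 of 10 YNG rats and in 1 of 12 AV rats. With C4a and C4b summed into 1 gene, the log2 difference from YNG was 0.92 for ADQ, 1.19 for AA and 1.78 for AV. The sum was lower than in AV by -0.59 in AA (p = 0.00606) and by -0.86 in ADQ (p = 0.000113). For this sum without the 4 AV rats, AV minus YNG was 1.31, AA minus AV was -0.12 (p = 0.453) and ADQ minus AV was -0.39 (p = 0.0152).

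C3 is the component on which the activation pathways of the cascade meet. It had a median of 419 among YNG rats (339 to 675) and 911 among AV rats (587 to 3710). Its median in AA was 797 (527 to 1155) and the ADQ median 732 (578 to 971). AV rat 3999 held the highest value, 3710, and the next AV rat, 3989, had 1321. Of the 12 AV rats, 11 were above the highest YNG rat, as were 8 of 11 in AA and 8 of 11 in ADQ. C3 was higher than in YNG by a log2 of 0.68 for ADQ (SE 0.19, adjusted p = 0.0266), 0.79 for AA (SE 0.19, adjusted p = 0.025) and 1.12 for AV (SE 0.18, adjusted p = 0.000274), and the AV value was 1.36 among rats of series a and 0.86 among rats of series b. C3 was lower in ADQ than in AV by -0.44 (p = 0.0187, adjusted p = 0.44), a difference of -0.26 without AV rat 3999 (p = 0.0558), and AA minus AV was -0.33 (95% interval -0.69 to 0.03, p = 0.0696). Omission of the 4 AV rats gave 0.95 for AV minus YNG, -0.17 for AA minus AV (p = 0.244) and -0.27 for ADQ minus AV (p = 0.0615). C3 had 2 rows, with 79.7% and 20.3% of its mean.

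The 3 chains of C1q assemble into 1 protein, and the log2 differences of their transcripts between AV and YNG were 0.20 to 0.49. C1qa had a median of 876 among YNG rats (642 to 1340) and 1290 among AV rats (783 to 2526). The AA median was 1111 (767 to 1835) and the ADQ median 1073 (874 to 1283). The groups overlapped, and 5 of 12 AV rats were above the highest YNG rat. C1qa was higher than in YNG by a log2 of 0.49 in AV (p = 0.00278, adjusted p = 0.0765) and by 0.37 in AA (p = 0.0235, adjusted p = 0.128, limma), and ADQ minus YNG was 0.23 (95% interval -0.09 to 0.54, p = 0.152). The AA value rested on few rats, since 3 of 44 fits that left out 1 rat lost it, with p = 0.0579 without AA rat 4070 and p = 0.0539 without AA rat 4107, the rat high in CA1 markers, whose C1qa was the second highest in AA. It was 0.03 among rats of series a (p = 0.91) and 0.70 among rats of series b (p = 0.00135), and the AV value was 0.37 (p = 0.0936) and 0.64 (p = 0.003), respectively.

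C1qb had a median of 724 among YNG rats (481 to 1157) and 880 among AV rats (640 to 1321). Its median in AA was 781 (522 to 1131) and the ADQ median 718 (559 to 813). No older group passed the test against YNG, and the 95% intervals of the log2 difference were -0.45 to 0.12 for ADQ, -0.26 to 0.31 for AA and -0.08 to 0.48 for AV. C1qb was lower in ADQ than in AV by -0.36 (p = 0.0114, adjusted p = 0.413). C1qc had a median of 676 among YNG rats (382 to 1006) and 898 among AV rats (613 to 1722). Its median in AA was 769 (559 to 1054) and the ADQ median 722 (436 to 932). It was higher in AV than in YNG by 0.42 (p = 0.0108, adjusted p = 0.124) and lower in ADQ than in AV by -0.41 (p = 0.0116, adjusted p = 0.414). AV rat 3989 held the highest value of all 3 chains. In the fit without the 4 AV rats, C1qa was still higher in AV than in YNG (0.32, p = 0.0446), while C1qc (0.20, p = 0.214) was not, and ADQ minus AV was -0.17 for C1qb (p = 0.232) and -0.19 for C1qc (p = 0.239).

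Serping1 encodes the inhibitor of C1r and C1s. Its mean was 202 ± 192 in AV (SD, n = 12), 153 ± 94.7 without AV rat 3989 (n = 11) and 59.9 ± 21.7 in YNG (n = 10). It had a median of 55.2 among YNG rats (34.4 to 102) and 139 among AV rats (53.5 to 740). The AA median was 82.2 (44.03 to 242) and the ADQ median 69.1 (56.5 to 124). AV rat 3989 had 740 and AV rat 3999 had 361, and the highest AA rat, 3996, had 242, while 6 of 12 AV rats lay within the range of YNG. Serping1 was higher in AV than in YNG by a log2 of 1.39 (SE 0.29, adjusted p = 0.00535), and the difference from YNG was 0.36 for ADQ (95% interval -0.24 to 0.96, p = 0.228) and 0.54 for AA (-0.06 to 1.14, p = 0.0753, with p = 0.0404 when AV rat 3989 was left out). In AA against YNG it also passed in limma with 2 groups alone (p = 0.0278), array weights (p = 0.0329) and series as a term (p = 0.0495). It did not with the other scaling, pseudocount, filter or row settings, or in either series alone. Serping1 was lower than in AV by -0.85 in AA (p = 0.00463, adjusted p = 0.999) and by -1.03 in ADQ (p = 0.000775, adjusted p = 0.195). The fit without those 4 AV rats gave AV minus YNG as 0.83 (p = 0.00168), AA minus AV was -0.29 (p = 0.239) and ADQ minus AV was -0.47 (p = 0.0607).

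The spread among rats was narrowest in ADQ for 6 of the 7 members, as it was for 45.3% of all genes tested, and for 4 of 7 without the 4 AV rats (41.7% of all genes). The coefficient of variation in ADQ was 11.3% for C1qa, 11.5% for C1qb, 14.8% for C3 and 18.8% for C4b, against 36.7%, 26.01%, 74.2% and 63.1% in AV. The AV values were 29.5%, 23.8%, 24.1% and 12.1% when the 4 rats were left out, and without AV rat 3999 alone C3 had 26.9%. C4a was the exception, with 32.7% in ADQ and 31.7% in YNG. In tissue of mixed cells, more cells of a type and more RNA per cell cannot be told apart, and this holds for every value given here.

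To ask whether the members moved together, the log2 ratio of members within each rat was compared between groups for 8 ratios and 6 comparisons, by two-sided permutation tests with 100000 resamples adjusted over these 48 tests. Of these, 15 passed. C4b rose relative to C1qa with age, from a mean log2 ratio of -4.87 ± 0.75 in YNG (SD, n = 10) to -3.37 ± 0.67 in AV (n = 12), a difference of 1.501 (adjusted p = 0.00192, permutation test), and the ratio was above the YNG median in 12 of 12 AV rats. The ratio was lower in AA (-4.05 ± 0.41, n = 11) than in AV by -0.68 (adjusted p = 0.0252, permutation test) and lower in ADQ (-4.12 ± 0.33, n = 11) than in AV by -0.75 (adjusted p = 0.0194, permutation test). With the 4 AV rats left out, the exact permutation test gave an adjusted p of 0.15 for AA and 0.0693 for ADQ. C3 relative to C1qa was higher than in YNG in AV, AA and ADQ (log2 0.63, 0.42 and 0.45), without a difference between AV and either drug group that passed.

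Within C1q itself, the ratio of C1qb to C1qa fell by 0.29 on the log2 scale from YNG to AV, by 0.34 to AA and by 0.39 to ADQ (adjusted p = 0.0444, 0.0197 and 0.0036, permutation test), and 0 of 11 ADQ rats were above the YNG median. The ratio passed in no comparison between older groups. The AV call was made in 29 of 44 tests that left out 1 rat, and that of C3 to C1qa in AA in 32 of 44. The ratio of C4b to C4a passed in no comparison, and it ranged from a log2 of -2.27 to 1.12 among YNG rats. Serping1 relative to C4b also passed in none. Within series a alone 5 ratio comparisons passed, and within series b alone none did. These were exact permutation tests with 4 to 6 rats per group. The rise of C4b over C1qa was smaller in series b. Its log2 difference from YNG was 2.275 (series a) against 0.53 (series b) for AV rats. AA rats had 1.461 against 0.024, and ADQ rats 1.145 against 0.16. C3 over C1qa in AA minus YNG gave 0.78 against 0.04. C1qb over C1qa stayed below YNG in both series, with -0.34 against -0.19 (AV), -0.27 against -0.35 (AA) and -0.41 against -0.31 (ADQ). Whether these ratio differences differed between the series was not tested, and no ratio was taken with C4a and C4b summed.

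**Figure D3:**
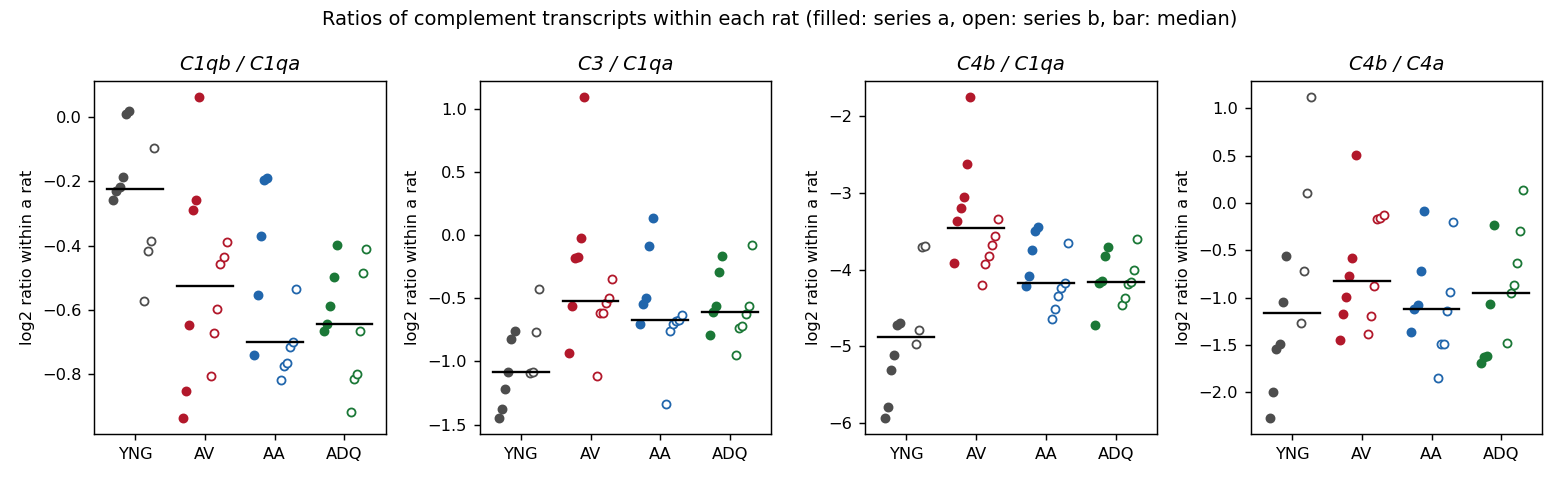
Log2 ratio of normalized read counts within each rat for C1qb to C1qa, C3 to C1qa, C4b to C1qa and C4b to C4a, by group, with rats of series a as filled and of series b as open circles and the median as a bar. The C4b to C1qa ratio of all 12 AV rats lies above the YNG median of -4.88, and the C4b to C4a ratio spreads most in YNG.

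Correlations between members were computed over the 44 rats on the log2 scale after subtraction of group means, with permutation within groups and adjustment over 21 pairs. The rats share tissue dissection, library depth and cell makeup in these values. In all, 15 pairs passed, and 11 passed after the 2 rats farthest from the median of the first gene of the pair were left out. The 11 include C1qb with C4b, which missed the threshold over all 44 rats (adjusted p = 0.066, and 0.0299 without the 2 rats, by permutation). The C1q chains were most closely related. For C1qb and C1qc Pearson r was 0.885 and Spearman rho 0.882 (adjusted p = 7e-05 for both by permutation, from the smallest p that the permutations can give), r without the 2 farthest rats was 0.877, and r was 0.747 to 0.966 in the 4 groups taken singly. C4a and Serping1 gave r = 0.544 and rho = 0.475 (adjusted p = 0.00916 and 0.0132 by permutation), and r was 0.422 without the 2 farthest rats. Taken by group, r was 0.928 among AV rats, 0.235 among YNG, -0.209 among AA and 0.0998 among ADQ rats. C4a and C4b were not correlated beyond the threshold (r = 0.308, rho = 0.181, adjusted p = 0.0984 and 0.259 by permutation), with r = 0.292 without the 2 farthest rats. With the 4 AV rats left out 6 pairs passed, the 3 pairs within C1q and C3 with C1qa, C4b and Serping1.

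The genes most like 4 of the members from rat to rat, by Pearson r over the same 44 rats after subtraction of group means and among 13704 genes with a mean of at least 20, held no gene in common. Closest to C1qa were Npc2 (r = 0.877) and Ctsb (0.807), which encode lysosomal proteins, followed by Guk1, Pfn1 and Ntsr2. Closest to C3 were Itgam (0.811), a subunit of the receptor for C3 fragments, the MHC class II genes Cd74 (0.77), RT1-Da and RT1-Bb, and LOC103689965. Closest to C4b were Vwf (0.801), Cd93, Fn1, Adgrl4 and Cdh5, of which Vwf and Cdh5 are endothelial markers. Closest to Serping1 were Mcam (0.809), B2m (0.809), Cav1, Pttg1ip and Slc14a1.

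Summed markers of other cell types moved with some members. The microglial list (8 of 8 genes in the table) had medians of 5036, 5005, 4565 and 4283 in the YNG, AV, AA and ADQ rats, none of them higher in an older group than in YNG. The endothelial list had a median of 1507 among YNG rats (815 to 3100) and 2366 among AV rats (1581 to 7702). Its AA median was 1937 (1697 to 2942) and its ADQ median 1796 (1560 to 2055). The astrocyte list (7 of 7) had medians of 60780, 74418, 68506 and 64912, and the T and NK cell list (6 of 6) had 48.1, 123, 44.6 and 36.9. Over the 44 rats, with group means removed, C4b had r = 0.668 with the endothelial list and Serping1 had r = 0.854 with the astrocyte list and 0.704 with the T and NK cell list. C1qc had r = 0.671 with the microglial list, and C4a had r = 0.591 with the astrocyte list. The red blood cell list had r = 0.604 with C1qc and 0.51 with C1qb, and the granulocyte and monocyte list had 0.514 with C1qc. Serping1 had r = -0.643 with the list of CA3 pyramidal and mossy cells and 0.563 with the CA1 list. The part of these cell types, and of the tissue taken, in the results was not tested. The r values of the marker lists, and those of the likeness above, include the 4 AV rats high in T and NK cell markers. They were not computed without these rats. Among the members, r of C4b and Serping1 was 0.514 over the 44 rats and 0.168 without the 4 AV rats. Markers of granulocytes and monocytes (4 of 5 in the table, without Ccr2) had summed medians of 2.01 to 5.69.

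Of 48 other complement genes, 38 were in the table and 31 passed the filter on low values. In AV against YNG, 7 were higher and 1 was lower, with a median log2 difference of 0.12. The share called in either direction is close to that of all genes (21.3%). The share called as higher is above that of all genes (10.6%). Without the 4 AV rats high in T and NK cell markers, 2 of the 31 passed (background 9.32%). Of the receptors, Itgb2, the shared subunit of the C3 fragment receptors, was higher by a log2 of 0.80 (adjusted p = 0.000307, limma), and in the fit without the 4 AV rats by 0.51 (adjusted p = 0.0117). Itgam was higher by 0.38 (p = 0.00446, adjusted p = 0.0917), Cd93, first described as a C1q receptor and made by endothelial cells, by 0.90 (p = 0.00209, adjusted p = 0.067), and the anaphylatoxin receptor C5ar2 by 0.51. Without those rats none of these 3 passed, with 0.20 for Itgam (p = 0.116), 0.18 for Cd93 (p = 0.33) and 0.28 for C5ar2 (p = 0.302). Of the recognition molecules and proteases, C2, which joins C4 in the enzyme that cleaves C3, was higher by 0.78, C1s by 0.45 and the ficolin Fcna by 0.77. Left without the 4 rats, C1s was higher by 0.31 (p = 0.032), while C2 had 0.42 (p = 0.0951) and Fcna 0.50 (p = 0.101). C1r, the other protease blocked by the C1 inhibitor, had a difference of 0.03 (p = 0.782). Among 15 regulators tested none was higher and Susd4 was lower (-0.25), and the receptors C3ar1 (0.04, p = 0.873) and C5ar1 did not pass.

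**Figure D4:**
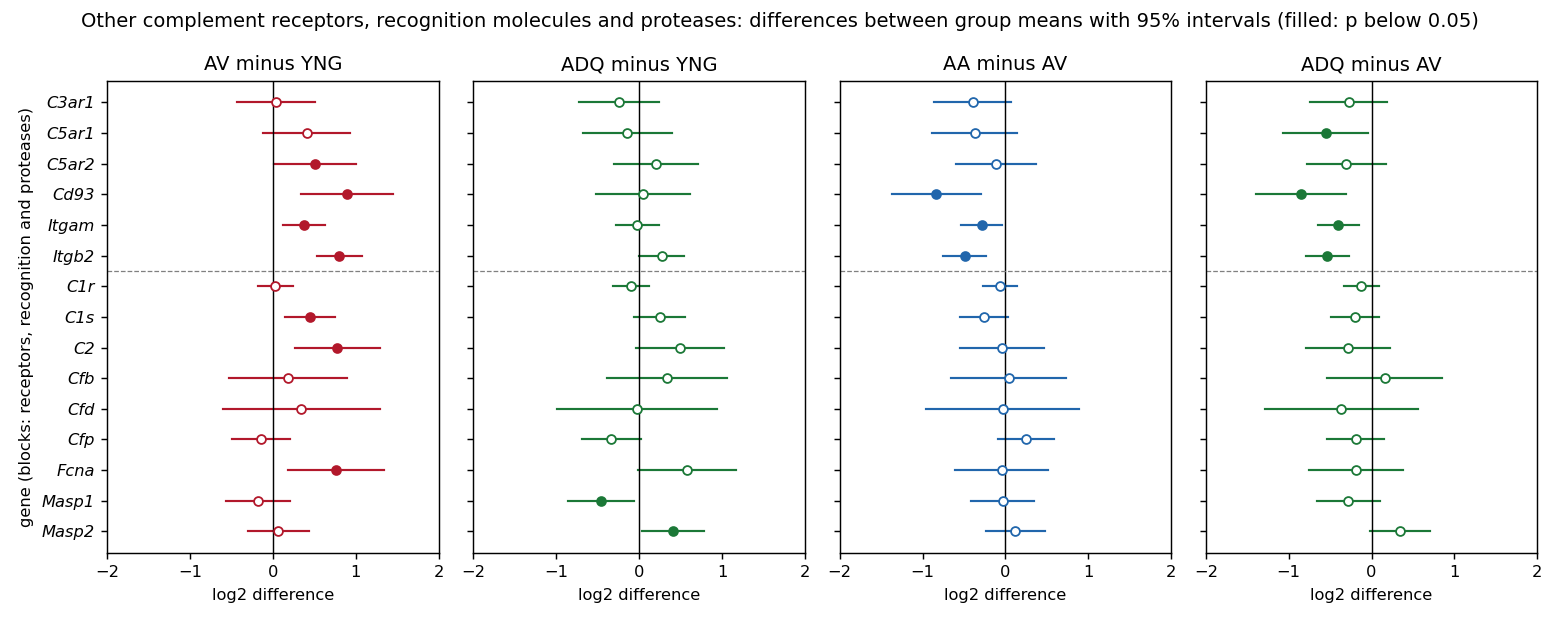
Log2 differences between group means of the 6 receptors and the 9 recognition molecules and proteases tested among the other complement genes, with 95% intervals from limma, in 4 comparisons, grouped by role and filled where the unadjusted p was below 0.05. Itgb2, Itgam and Cd93 lie above 0 in AV against YNG and below 0 in both drug groups against AV, and of the 9 differences only those of Itgb2 in AV against YNG and in ADQ against AV passed without the 4 AV rats.

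Against YNG, 5 of these genes passed in each drug group, a share below that of all genes (26.6% for AA and 28.1% for ADQ). For AA, 4 were higher (C2, Fcna, Sez6l and Itgb2) and C1qbp was lower. In ADQ, 3 were higher (Sez6l, Masp2 and Csmd1) and 2 were lower (Vtn and Masp1), and only Sez6l passed after adjustment (log2 0.33, adjusted p = 0.0348). Over the 3 older groups together, C2, Fcna, Sez6l and Itgb2 were higher with an adjusted p below 0.05. Against AV, where 4.51% (AA) and 9.32% (ADQ) of all genes passed, 3 receptors were lower in AA, Itgb2 (-0.49, p = 0.000416), Cd93 (-0.83, p = 0.00325) and Itgam (-0.29, p = 0.0244). In ADQ, 4 receptors were lower, Itgb2 (-0.53, p = 0.00016), Itgam (-0.40, p = 0.00206), Cd93 (-0.85, p = 0.00273) and C5ar1 (-0.55, p = 0.0357), and Sez6l was higher. None of these receptor differences from AV had an adjusted p below 0.05. Without the 4 AV rats, 0 of the 31 genes passed in AA against AV, where Itgb2 had -0.20 (p = 0.0533), Cd93 -0.11 (p = 0.523) and Itgam -0.10 (p = 0.388). In ADQ against AV 2 of 31 then passed, Itgb2 (-0.24, p = 0.0218) and Masp2, which was higher, and Itgam had -0.22 (p = 0.0719), Cd93 -0.13 (p = 0.465), C5ar1 -0.54 (p = 0.0645) and Sez6l 0.18 (p = 0.0727). AA and ADQ differed in Cfp alone (0.44, p = 0.0147, adjusted p = 0.981).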

How the data were processed

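Per the submitters' processing notes and the methods of the study, the authors trimmed and aligned Ion reads with STAR 2.5.3a in Partek to rn6 and normalized for DESeq2 by median ratio. The deposited table holds signal values: reads assigned to each row, estimated by the software and scaled by the size factor of its library. Of the low values, 79.2 to 84.2% were whole multiples (within 0.05 read) of a step per library, so whole reads were not recovered and no count model was used, although the study used DESeq2.

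Rows of a gene identifier were summed, and log2(value + 1) of the 15598 genes with a mean of at least 5 was fitted with limma 3.58.1 (trend, all 4 groups in 1 fit, R 4.3.3), at the study's unadjusted p of 0.05 with Benjamini-Hochberg adjustment over all genes beside it. Rats are the replicates. For older rats the treatment came from the attributes table that the authors deposited, matched by rat name, since the labels give age alone. Permutation tests and tables used Python 3.11.15 with numpy 2.4.6 and pandas 2.3.3. The fit was tested on simulated data.

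Named genes were all 7 members; of the other complement genes, the 5 with the smallest p in AV against YNG, those with an adjusted p below 0.05 in any comparison, the 3 with the smallest p in AA and in ADQ against AV, and C3ar1, C5ar1, Itgam and Itgb2; and the 5 genes most like C1qa, C3, C4b and Serping1. C1r, C5ar2, Susd4, C1qbp, Masp1, Masp2, Csmd1, Vtn and Cfp were named after their values were seen, and 1 gene that the rule takes is not reported here. The members and lists were chosen with earlier results of these data known.

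Alternatives were a pseudocount of 0.5, no filter, upper quartile scaling, the highest row of a gene, 2 groups alone, array weights, series as a term, each series alone and leaving out each rat, and, chosen after seeing the data, C4a with C4b summed, leaving out the 4 AV rats high in T and NK cell markers, both together, and spreads without AV rat 3989 or 3999.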

Additional observations from a re-analysis of the deposited data

Results flagged for a closer look

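In 4 results the difference between groups differed between the 2 ranges of rat number (series a minus series b, limma interaction on the log2 scale, 42 such tests over the members). For C4b in AV against YNG the difference between series was 1.48 (2.65 in series a, 1.17 in series b, p = 0.00118, adjusted p = 0.0373), where 21.8% of all genes passed the unadjusted test. For C1qa in AA against YNG it was -0.67 (0.03 and 0.70, p = 0.0341, adjusted p = 0.245) and for C1qb in AA against YNG it was -0.59 (-0.24 and 0.35, p = 0.0465, adjusted p = 0.281), with 17.3% of all genes passing. For C4a in AA against AV it was -1.12 (-1.03 and 0.09, p = 0.0266, adjusted p = 0.937), with 4.71% passing. C4b kept its direction in both series, and C4a in AA against AV had p = 0.00362 in series a and p = 0.797 in series b. These fits include the 4 AV rats high in T and NK cell markers, and C4a and C4b were not summed in them. In series b, AV and drug rats lie in separate ranges of rat number. No YNG rat stood apart from its group in any member by Dixon's test.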

How the results depend on the processing

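Of the alternatives, scaling by the upper quartile moved the median of all genes by at most 0.025 on the log2 scale. No paired analysis was possible because the rats carry no shared replicate numbers. The number of members called was 5 with array weights in ADQ against YNG and 1 in AA against ADQ, and 3 in series b in ADQ against AV (background 9.74%). Without the 4 AV rats high in T and NK cell markers it was 0 in AA against AV (background 2.42%) and 1 in ADQ against AV (4.84%). The share of all genes called was not computed for array weights or for the fits without 1 rat, so those counts have no background. Leaving out each rat gave 2 to 4 members in AA against AV (4 without AV rat 4567 and without AA rat 4070).

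Counts of other complement genes called were less stable. Array weights gave 17 for all older rats, 14 for AV, 15 for AA and 17 for ADQ against YNG and 8 for ADQ against AV. Whether array weights raised the calls over all genes alike was not tested. Series a gave 3 for AA and 3 for ADQ against YNG and 0 for AA against ADQ, and series b gave 2 in each comparison that moved. In ADQ against YNG, upper quartile scaling gave 8, 2 groups alone 9 and leaving out the 4 AV rats 9, and without these rats the counts were 2 in AV against YNG, 0 in AA against AV and 2 in ADQ against AV. Leaving out each rat gave 5 to 10 (all older), 3 to 9 (AA) and 3 to 9 (ADQ) against YNG, and 2 to 6 (AA) and 3 to 8 (ADQ) against AV. The counts that moved most were those without V10, V11 or 3989 (all older), without V1, V2, V9, V10 or 3984 (AA against YNG), without V1, V2, V3, V6, V11, 3989, 4011, 4106 or 4567 (ADQ against YNG), without 3989 (AA against AV) and without 3989, 4006, 4011 or 4031 (ADQ against AV).

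With upper quartile scaling, 1 member differed between the series in AA against YNG and 1 in ADQ against AV. The 15 ratio comparisons were 5 in series a, 0 in series b, 8 without the 4 AV rats and 9 to 17 without 1 rat (9 without YNG rat V2). The 15 correlated pairs were 9 in series a, 6 in series b and 6 without the 4 AV rats.

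Log2 differences that changed sign had all missed the threshold. In series a they were -0.052 (C1qa, AA against ADQ), -0.18 (C1qb, all older), -0.24 (C1qb, AA against YNG), -0.044 and -0.18 (C1qc, AA and ADQ against YNG) and -0.11 (C4a, AA against ADQ). In series b they were 0.063 (C1qa, AA against AV), 0.086 (C1qb, ADQ against YNG) and 0.088 (C4a, AA against AV). Array weights gave -0.036 (C1qb, all older) and -0.031 (C1qc, ADQ against YNG). Without the 4 AV rats they were 0.050 and 0.013 (C1qa and C1qb, AA against AV) and -0.042 (C1qb, all older), with 0.32 and 0.22 (C2 and Fcna) and 0.11 (C5ar2) in AA against AV and 0.077 and 0.074 (C2 and Fcna) in ADQ against AV. Leaving out 1 rat gave -0.057 to 0.083 (C1qb, all older), -0.052 to 0.088 (C1qb, AA against YNG) and -0.078 to 0.081 (C1qc, ADQ against YNG). The cause of these changes was not tested.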
